A study of Mus musculus with 6 samples.

Results

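The genes described here are Spata2, its paralogue Spata2l, Cyld, the linear ubiquitin chain assembly genes Rnf31, Rbck1 and Sharpin, and Otulin, which are 7 of the 35974 named genes of the deposited transcriptome and carry 46 of its 114412 transcripts. Spata2 was selected on the values of this same contrast, because its gene sum lay past an FDR of 0.05 in PB-exposed against control ovaries in earlier results of these data, and the other genes were added by function. RNA was sequenced from ovaries of C57Bl6j embryos collected at E15.5. Pregnant mice received panobinostat (PB), an inhibitor of histone deacetylases, by oral gavage at 5 mg/kg from E6.5 to E15.5, and control mice received DMSO and water. The sample annotation gives this dose per day, whereas the methods give it on alternate days. There were 3 control and 3 PB pools, and each replicate was a pool of 4 ovaries in the sample annotation, of 6 to 8 in the series design and of at least 8 in the methods. The spread behind every error and FDR is therefore that between pools of ovaries, and whether pools shared litters is not given in the sources used here.

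Linear ubiquitin chains are built by a complex in which Rnf31 is the catalytic subunit and Rbck1 and Sharpin are partners that stabilise it. Otulin and Cyld remove such chains, and Spata2 bridges Cyld to Rnf31, the subunit that also binds Otulin, so that Cyld is brought to receptor complexes such as that of the tumour necrosis factor (TNF) receptor. This system sets NF-kB signalling and cell death downstream of the receptors, and Spata2 was originally described in the testis, in Sertoli cells.

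The deposited values were raw counts per transcript, which summed to 103627570, 125985399 and 97165644 in control 1, 2 and 3 and to 100650825, 104696262 and 120143093 in PB 1, 2 and 3. Gene sums add the counts of all transcripts with the same gene name, and normalised counts (CPM) are scaled to library size by TMM. Pools varied with a biological coefficient of variation of 20.9% for gene sums, 70.2% for sums over transcripts that share a first exon, and 98.4% for single transcripts. All 7 genes passed the filter on low counts, among 19435 tested genes.

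The tissue was checked against marker genes. The pregranulosa markers, led by Wnt4, summed to between 759 and 812 CPM in control and between 698 and 794 CPM in PB, and the 8 germ cell markers, led by Dazl, to between 664 and 881 CPM and between 562 and 1016 CPM. The 4 genes listed as Sertoli markers, led by Dmrt1, stayed between 26.5 and 38.0 CPM in the 6 pools. The mesonephros markers, led by Pax8, lay between 13.9 and 20.4 CPM in 5 pools and at 31.3 CPM in control 3. Interstitial markers, led by Col1a1, summed to between 2576 and 3101 CPM, endothelial markers, led by Kdr, to between 282 and 321 CPM, and macrophage markers, led by Csf1r, to between 44.9 and 54.2 CPM. Leydig markers, led by Hsd3b1, lay between 52.6 and 58.8 CPM in 5 pools and at 28.3 CPM in PB 1, where Hsd3b1 had 14.8 CPM, and adrenal markers, led by Akr1b7, between 1.75 and 2.63 CPM. Red cell markers, led by Hbb-bs, varied most among the control pools, between 15033 and 31933 CPM, against 18342 to 20105 CPM in PB. Over the 10 lists, 0 markers passed the FDR threshold of 0.05 in edgeR, 4 of the 48 tested had an unadjusted p of at most 0.05, where 4.46% of all 19435 tested genes had, and DESeq2 called 0. These 4 had log2 fold changes below 0. They were -0.58 for Pou5f1 and -0.52 for Dppa3, both germ cell markers, -0.52 for Dmrt1 and -0.77 for the globin gene Hba-a2. Dmrt1, listed under Sertoli, had 16.9, 10.1 and 16.6 CPM in control and 10.3, 9.41 and 10.5 CPM in PB. Pou5f1 had 30.6, 18.3 and 30.7 CPM in control and 17.0, 17.6 and 18.6 CPM in PB. Dppa3 had 20.1, 11.9 and 21.6 CPM in control and 12.2, 12.5 and 12.8 CPM in PB. Which cells the Dmrt1 counts came from was not tested. Other germ cell markers lay above 0, namely Sycp3 at 0.34, Tex101 at 0.27 and Mael at 0.25, and the median of the 8 was -0.020. The 2 groups overlapped in the sum of each list.

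Spata2 was higher in PB-exposed ovaries. Control 1, 2 and 3 had gene sums of 21.3, 21.3 and 22.6 CPM, and PB 1, 2 and 3 had 36.6, 36.4 and 34.3 CPM. Every PB pool lay above every control pool, and the spread within each group was small beside the distance between them. The mean stood at 21.7 ± 0.740 CPM (SD, n = 3) in control and 35.7 ± 1.25 CPM (SD, n = 3) in PB, a log2 fold change of 0.72 (SE 0.057, 95% interval 0.58 to 0.86), which is 1.65-fold. As Spata2 was chosen on this contrast, these values are a description. Its FDR was 0.0364, the only one of the 7 inside the threshold of 0.05, and that of Rnf31, the member with the next smallest p, was 0.888. In all, 5 of the 19435 genes (0.0257%) passed this FDR in edgeR, 3 of them higher in PB (0.0154%), and 3 genes (0.0154%) also changed at least 2-fold, which Spata2 did not. In DESeq2, Spata2 was likewise the 1 member past the FDR threshold, as were 27 of 20392 genes (0.132%). Its FDR in the DESeq2 Wald test was 5.15e-18, so the size of the FDR depended strongly on the tool. In either tool 0 members passed the fold threshold as well, which 11 genes (0.0539%) did in DESeq2. The log2 fold change of Spata2 lay between 0.70 and 0.75 in the 6 fits with 1 pool left out. Its FDR stayed under 0.05 only in the fit without PB replicate 2, where 33 genes passed, and was 0.170, 0.136 and 0.182 without control replicates 1, 2 and 3 and 0.282 and 0.0769 without PB replicates 1 and 3. With the replicate number as a block, a number that has no stated shared origin in the groups, 0 genes passed, and Spata2 had the same log2 fold change of 0.72 with an FDR of 0.469.

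**Figure D1:**
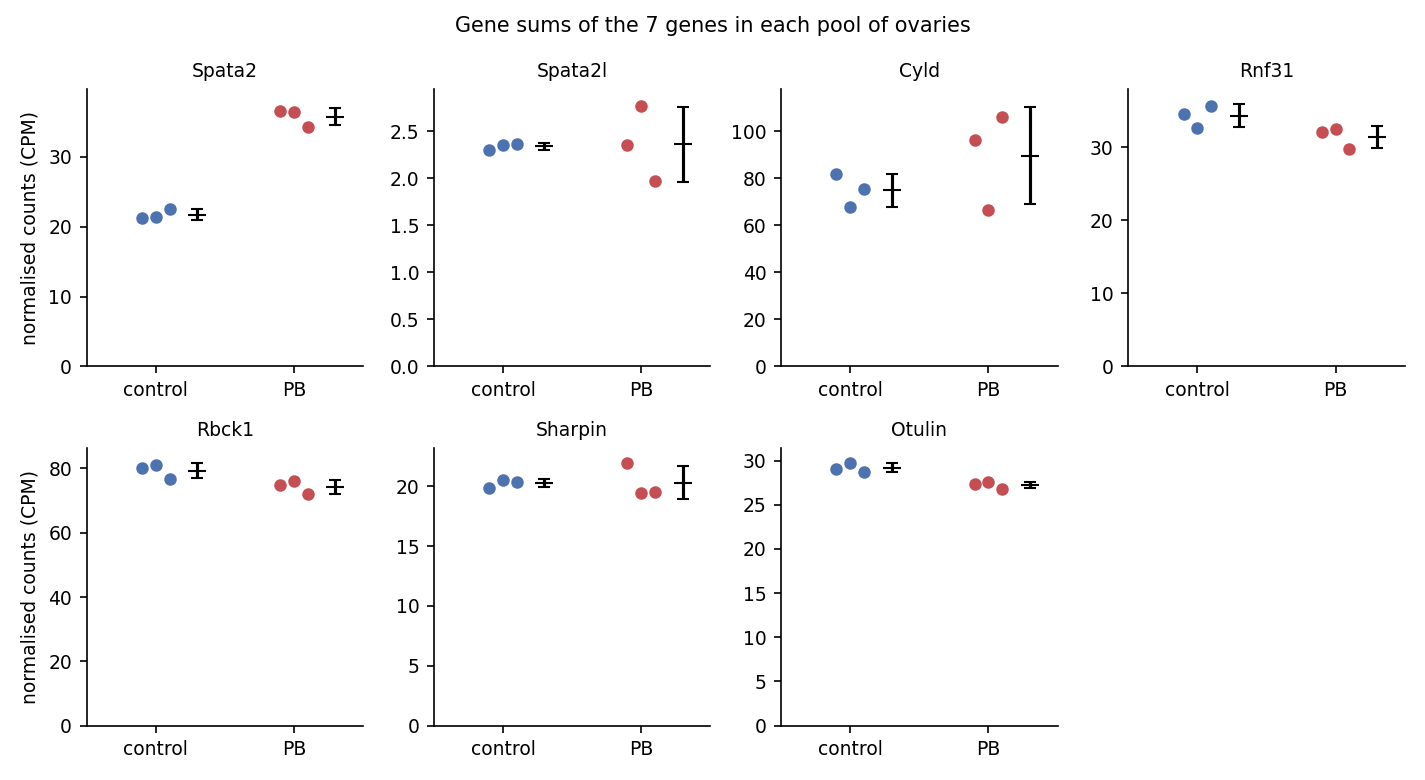
Gene sums in normalised counts (CPM) of the 7 genes in the 3 control pools (blue) and the 3 PB pools (red), with the mean and SD of each group in black. Spata2 lies between 34.3 and 36.6 CPM in PB against 21.3 to 22.6 CPM in control, and the PB pools of Cyld range from 66.7 to 106 CPM.

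The Spata2 gene spans chr2:167481136-167492874 on the minus strand of mm10. Its 6 deposited transcripts begin at 1 of 2 first exons and share the coding exons. The upstream first exon starts at position 167492874 and the downstream one at 167489368, 3506 bases nearer the coding sequence. In the GENCODE annotation of the same build, the start codon of Spata2 lies at 167485473 to 167485475. It is in an exon from 167485158 to 167485593 that all 6 deposited transcripts hold. With this start codon both first exons are noncoding, but GENCODE gives it only for transcripts that begin at the upstream exon. GENCODE also places the interval 167489169 to 167489368 inside 2 transcripts that begin at the upstream exon, so counts on this interval alone do not locate a start.

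Transcripts with the downstream first exon had 1115, 1065 and 1092 counts in control 1, 2 and 3 and 2459, 2481 and 2710 counts in PB 1, 2 and 3. Transcripts with the upstream first exon had 973, 1423 and 1034 counts in control and 1168, 1235 and 1279 counts in PB. The downstream counts were higher in each PB pool than in any control pool, whereas the upstream counts of the groups overlapped. On the CPM scale the downstream first exon went from 10.3 ± 1.31 in control to 23.3 ± 0.669 in PB (SD, n = 3), a log2 fold change of 1.17 (SE 0.12, 95% interval 0.87 to 1.48). The upstream one went from 10.7 ± 1.11 to 11.2 ± 0.502 CPM, with a log2 fold change of 0.076 (SE 0.12, 95% interval -0.22 to 0.37). Of the rise of the gene sum, 95.8% was assigned to the downstream first exon. The ratio of downstream to upstream counts was 1.15, 0.748 and 1.06 in control and 2.11, 2.01 and 2.12 in PB.

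The share of the Spata2 counts on the downstream first exon was 53.4%, 42.8% and 51.4% in control and 67.8%, 66.8% and 67.9% in PB. The 3 PB pools stood close together and above all control pools. Among 17506 first exons of the 6745 genes with at least 2 tested first exons, 5.10% had a share that was higher in every PB pool than in every control pool, and in 229 of them the mean share rose by at least as much as here. These shares come from the contrast on which Spata2 was chosen, and nothing is read from their position in that background.

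The 3′ ends of the same transcripts divided the counts as well. The 3 transcripts with a long 3′ end stop between 167481136 and 167481774, and the 3 with a short one between 167482566 and 167482574, both beyond 167483353, where the coding sequence of the GENCODE transcript with this start codon and the same exons ends. Long-ended transcripts had 1354, 1659 and 1263 counts in control and 3049, 3323 and 3512 in PB, whereas short-ended ones had 734, 829 and 863 in control and 578, 393 and 477 in PB. The long ends were thus higher, and the short ends lower, in every PB pool than in every control pool. The long ends went from 13.3 ± 0.399 to 30.1 ± 1.08 CPM, 2.26-fold, and the short ends from 7.65 ± 1.06 to 4.44 ± 1.04 CPM (SD, n = 3), and the share of the short ends was 33.3% to 40.6% in control and 10.6% to 15.9% in PB. Among 12291 groups of 3′ ends, which join ends less than 100 bases apart and so divide genes more finely than here, 5.16% had a share that was lower in every PB pool than in every control pool.

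Both divisions are tied to each other. The downstream first exon was joined almost entirely to long 3′ ends, which took 1103, 1051 and 1083 of its counts in control and 2432, 2449 and 2694 in PB. With the upstream first exon, the long-ended transcript NM_170756.2 had 251, 608 and 180 counts in control and 617, 874 and 818 in PB, and the short-ended transcripts had 722, 815 and 854 in control and 551, 361 and 461 in PB. The near-constant upstream sum was thus made of a long-ended part that was higher in PB and a short-ended part that was lower. On the CPM scale, long-ended transcripts of the upstream first exon went from 3.12 ± 1.69 to 7.02 ± 1.13 and those of the downstream first exon from 10.2 ± 1.31 to 23.1 ± 0.601 (SD, n = 3), which is 2.25-fold and 2.26-fold. The control pools of the upstream ones were far apart, with control 2 at 5.04 CPM against 2.47 and 1.85 CPM, so these folds are not compared, and as a share of the gene the upstream long-ended transcript overlapped between groups. The fourth combination, the downstream first exon with a short 3′ end, had few counts, 12, 14 and 9 in control and 27, 32 and 16 in PB. It too was higher in every PB pool, 2.14-fold in CPM, unlike the short ends of the upstream first exon. Whether the higher Spata2 level lay with the first exon or with the 3′ end cannot be told apart in these counts, since each read of the shared exons was divided among the transcripts by StringTie.

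**Figure D2:**
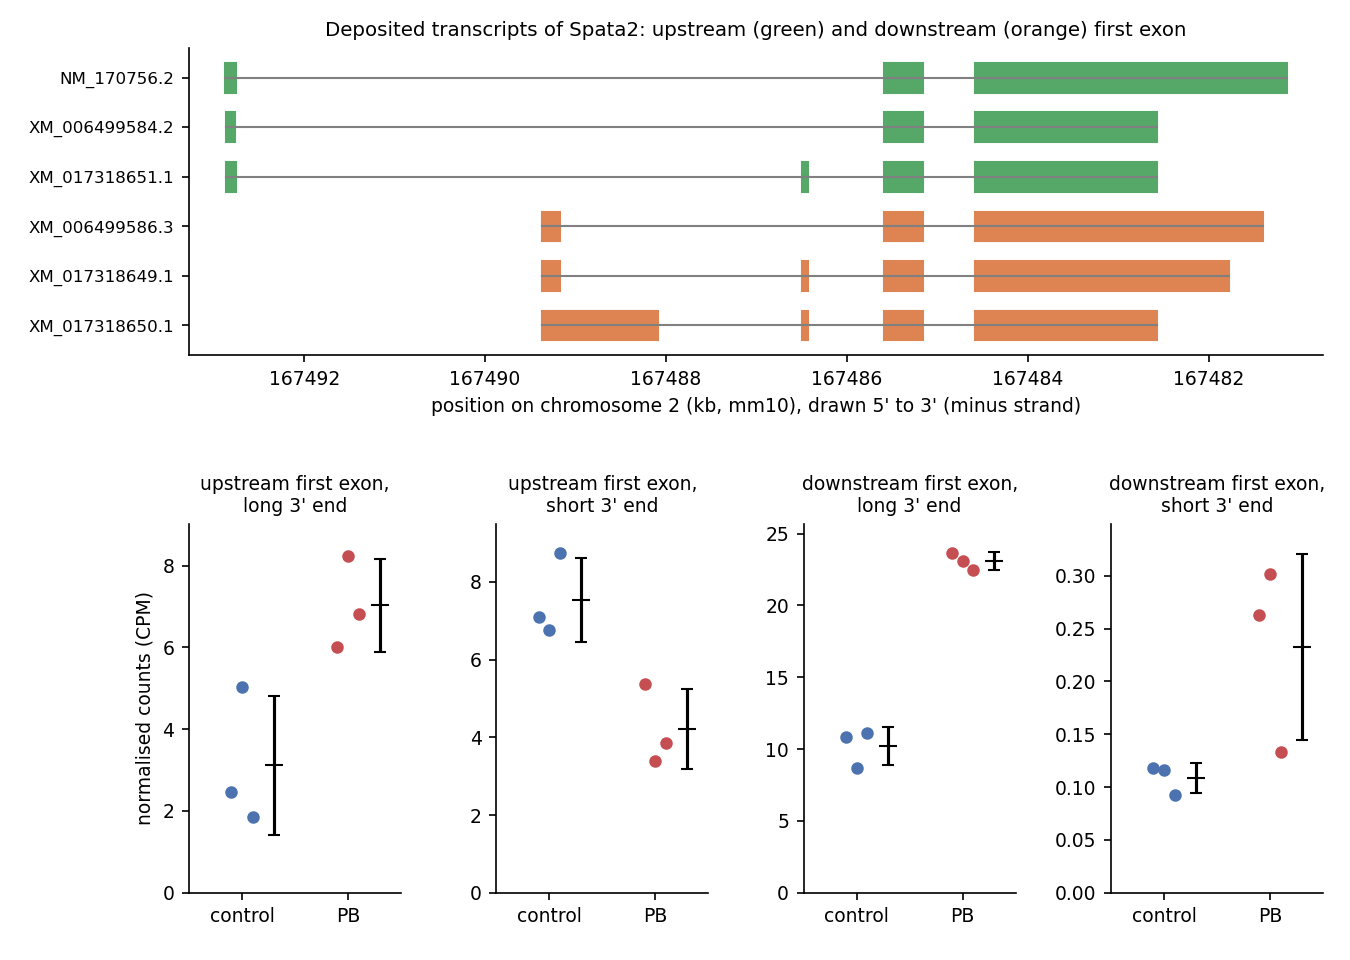
Exons of the 6 deposited Spata2 transcripts on chromosome 2 (top, position in kb), and normalised counts (CPM) of the transcripts grouped by first exon and 3′ end (bottom), for 3 control pools (blue) and 3 PB pools (red) with mean and SD in black, each panel with its own axis from 0. The long-ended groups are higher in every PB pool with either first exon, although control 2 of the upstream one is at 5.04 CPM against 2.47 and 1.85 CPM in the other control pools, the short-ended group of the upstream first exon is lower, and the sparse one of the downstream first exon is 2.14-fold higher.

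Single transcripts were less steady than these groups. XM_006499586.3 had 1101, 0 and 1083 counts in control and 2432, 625 and 2694 in PB, while XM_017318649.1, which has the same first exon and an additional exon at 167486432 to 167486492, had 2, 1051 and 0 counts in control and 0, 1824 and 0 in PB. The counts of this first exon were thus assigned to the latter transcript in control 2 and mostly so in PB 2. The short-ended pair XM_006499584.2 and XM_017318651.1 also switched in control 2 but was mixed in every PB pool, with 718, 0 and 854 against 4, 815 and 0 in control and 328, 128 and 140 against 223, 233 and 321 in PB. The percentage of Spata2 counts without the additional exon was 99.1, 24.4 and 99.6 in control pools and 93.1, 43.8 and 91.6 in PB pools, so the groups overlapped. The remaining transcript, XM_017318650.1, is the one that joins the downstream first exon to a short 3′ end, and it had between 9 and 32 counts in a pool.

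**Figure D3:**
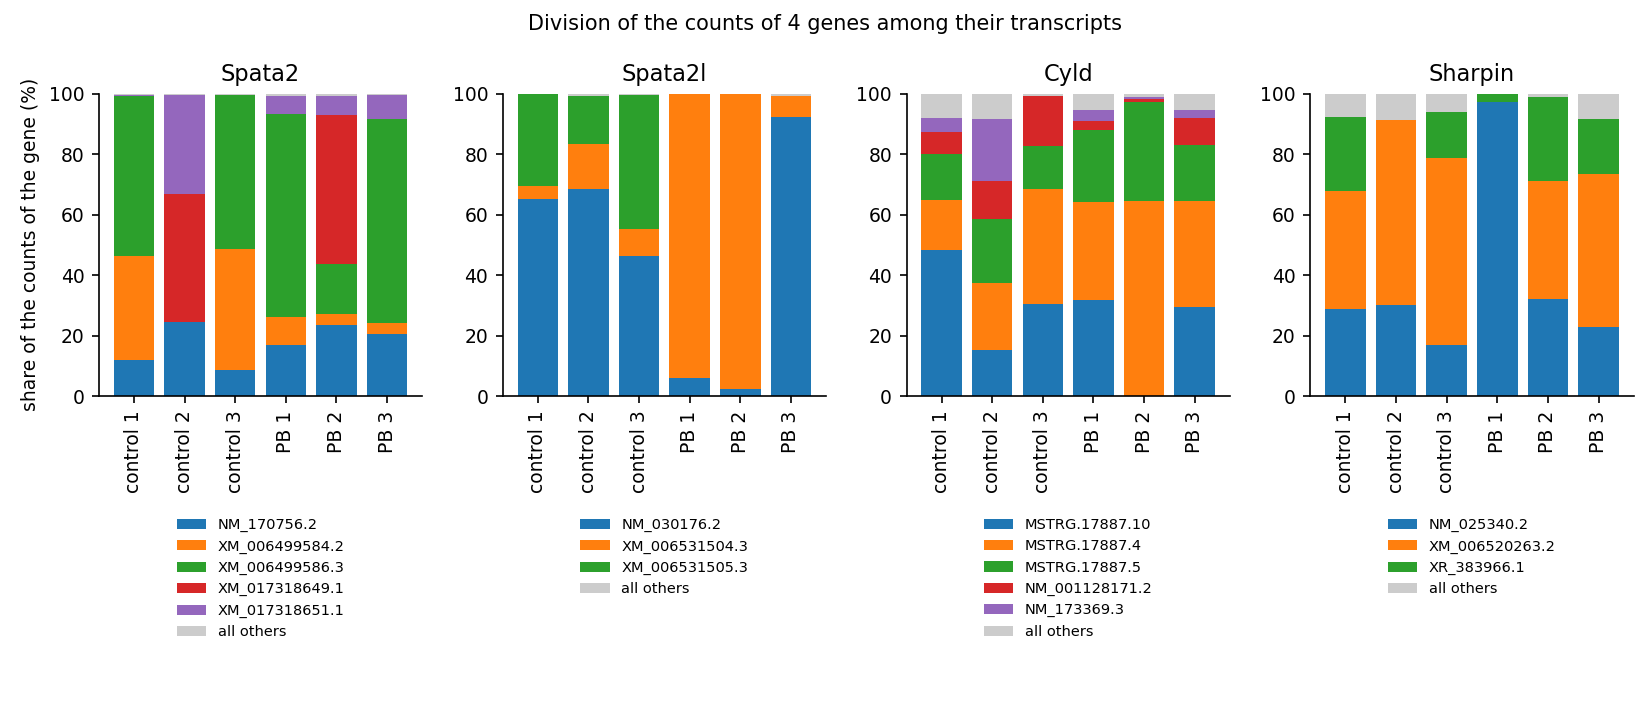
Share (%) of the counts of Spata2, Spata2l, Cyld and Sharpin on each transcript, 1 bar per pool, with transcripts under 10% in every pool joined in grey. The leading transcript changes between pools of 1 group in all 4 genes, as in Spata2l, where PB 3 has 92.1% on NM_030176.2 and PB 1 and PB 2 have 94.0% and 97.5% on XM_006531504.3.

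The upstream first exon of Spata2 lies back to back with Rnf114, a ubiquitin ligase gene on the plus strand, and the spans of both genes overlap by 230 bases. The libraries were directional, but whether the assembly used the strand is not given in the sources used here, so reads in this overlap may be assigned to either gene. The Rnf114 transcript whose exons reach into Spata2, NM_030743.5, had 100, 82 and 80 counts in control and 47, 41 and 40 in PB, and every PB pool was below every control pool, where 5.03% of all 51227 tested transcripts were in CPM. In CPM, the Rnf114 gene sum reached 118, 105 and 116 in control and, in PB, 127, 94.4 and 137, a log2 fold change of 0.083 (SE 0.14, FDR = 0.923 in edgeR). Its group ranges overlapped. The other near genes were Slc9a8, a sodium and proton exchanger, and B4galt5, a galactosyltransferase, on one side and Snai1, a transcription factor, on the other. Their log2 fold changes were -0.013, 0.023 and -0.046, with FDRs between 0.930 and 0.983 in edgeR, and their groups overlapped too.

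Promoter windows of RefSeq (GRCm38.p6) were found for 5 of the 7 genes, with 2 for Rbck1 that overlap, so that 6 windows were read. They were searched on both strands for CCGGAAG, a core bound by ETS factors, for the TATA box TATAAA and for GGGCGG, a core bound by Sp factors. CCGGAAG was in 3 of the 6 windows, those of Spata2, Rnf31 and Rbck1, against 8.86% of 32851 windows of all genes, GGGCGG in 5 of 6 against 35.7%, where both Rbck1 windows hold the same matches in their overlap, and TATAAA in 0 of 6 against 13.6%. The Spata2 window held 3 matches to CCGGAAG, all in reverse as CTTCCGG. The 2 nearest to each other flank the upstream start and are shown as the matches nearest to a start of Spata2 in the window. The downstream start, on whose first exon most of the rise was placed, lies outside this window and was not searched. The shown matches lie at chr2:167492863-167492892 on the minus strand of GRCm38.p6, with the matches in capitals.
Spata2 upstream start: gtcaCTTCCGGaacaaataCTTCCGGgctg
The Spata2 window has 36 CpG sites and 66.7% G and C, against medians of 7 and 52.7% over all windows. All 6 windows read here lay above these medians, with 15 to 36 CpG sites and 60% to 71% G and C. The motif shares over all windows were not matched for this composition. These matches are descriptions of sequence, and no binding was measured here.

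Cyld, the deubiquitinase that Spata2 recruits, had widely spread values within the PB group. In control pools its gene sum was 81.6, 67.8 and 75.3 CPM, and in PB pools 96.3, 66.7 and 106 CPM. PB 3 and PB 1 were the highest pools and PB 2 the lowest of all 6, so the groups overlapped. The log2 fold change was 0.26 (SE 0.17, 95% interval -0.15 to 0.67). The order of the pools was the same for Cyld, for Rnf114 and for the sum of the germ cell markers. This sum reached 881, 664 and 866 CPM in control pools and 956, 562 and 1016 CPM in PB pools. It was led by Dazl, and not every gene in it had this order. Pou5f1 was lowest in PB 1, at 17.0 CPM, and Dppa3 in control 2, at 11.9 CPM. How many of all genes had the same order was not counted. None of the 8 germ cell markers was at or under 3 counts in every pool. The part of germ cell content in the Cyld and Rnf114 values was not tested, and in these bulk samples fewer cells of a type and less RNA per cell cannot be told apart. The order of the pools for Spata2 was a different one, with PB 2, the pool with the lowest germ cell marker sum, at 36.4 CPM. The part of germ cell content in the Spata2 values was not tested either.

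Cyld (chr8:88697001-88751946, plus strand) had 18 transcripts, of which 15 matched RefSeq and 3 were assembled from these libraries. The first exon of the assembled ones ends at 88697193, as in 3 known transcripts with 0 counts, and that of the known ones with most counts at 88697099. Assembled transcripts took 80.0%, 58.7% and 82.6% of the gene sum in control pools and 88.1%, 97.2% and 83.0% in PB pools. The shares of control 3 and PB 3 nearly met. When the assembled transcripts were left out, the log2 fold change of Cyld turned from 0.26 to -0.87. The known transcripts had 1601, 3269 and 1231 counts in control and 1136, 190 and 2094 in PB, so the groups overlapped, with control 2 highest and PB 2 lowest. Among the assembled transcripts, MSTRG.17887.4 had 1333, 1740 and 2698 counts in control and 3102, 4403 and 4323 in PB, and MSTRG.17887.5 had 1222, 1685 and 1013 against 2270, 2226 and 2289. Both were higher in every PB pool, where 4.92% of all tested transcripts were in CPM, and MSTRG.17887.5 had an FDR of 0.00359 in DESeq2, at a fold change under 2, and of 0.576 in edgeR. MSTRG.17887.10 had 3863, 1212 and 2145 counts in control and 3037, 0 and 3631 in PB. Known transcripts with at least 10% of the counts in a pool were NM_001128171.2, between 76 and 1184 counts, and NM_173369.3, between 0 and 1627 counts. The exon at 88702305 to 88702438 was absent from transcripts with 14.6% to 46.2% of the Cyld counts in control pools and 23.6% to 34.3% in PB pools, and the groups overlapped.

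Spata2l, the paralogue, was the least abundant member per length. In CPM, its gene sum was 2.30, 2.35 and 2.37 in control and, in PB, 2.35, 2.77 and 1.97, giving a log2 fold change of 0.014 (SE 0.16, 95% interval -0.37 to 0.40). The PB pools lay on both sides of the control pools. The counts were divided differently among its transcripts, whose middle exons begin at other positions, 123235821 in XM_006531505.3, 123235923 in XM_006531504.3 and 123235849 in NM_030176.2. XM_006531505.3 had 69, 44 and 99 counts in control and 0 in all 3 PB pools, at least 24.9-fold lower against a floor of 3 counts per pool. This bound covers counting error alone and not the division of shared reads among these transcripts by StringTie. XM_006531504.3 had 10, 40 and 20 counts in control and 219, 276 and 16 in PB, and NM_030176.2 had 147, 188 and 103 in control and 14, 7 and 211 in PB. In PB 1 and PB 2 most counts of the gene were thus on XM_006531504.3, and in PB 3 on NM_030176.2. Among the 51227 tested transcripts, 305 (0.595%) were at or under 3 counts in every pool of one group and above 3 in every pool of the other. Spata2l (chr8:123232255-123236247, minus strand) overlaps 4933417D19Rik by 1157 bases and Cdk10 by 4 bases, both on the other strand, and reads there may be assigned to either gene.

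XM_006531505.3 was the 1 transcript of the 7 genes that DESeq2 called past the 2-fold and FDR thresholds (FDR = 2.31e-07), where it called 1172 of 63278 transcripts (1.85%). On the FDR alone DESeq2 called 2 member transcripts, this one and MSTRG.17887.5 of Cyld, and 1253 in all (1.98%). With edgeR, 0 of the 31 tested member transcripts passed both thresholds, and 17 of all 51227 tested transcripts passed (0.0332%). At an unadjusted p of at most 0.05 there were 4 of these 31, and 1824 of all tested transcripts (3.56%). The FDR of XM_006531505.3 in edgeR was 0.371. The number of transcripts that passed in edgeR lay between 0 and 19 when single pools were left out. It was 0 without control replicate 1, 1 without control replicate 3, 2 without PB replicate 1 and 9 without PB replicate 3.

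The subunits of the chain-building complex lay close together in the 2 groups. Rnf31, the catalytic subunit (chr14:55591713-55603674), had 34.6, 32.6 and 35.7 CPM in the control pools and 32.0, 32.4 and 29.7 CPM in the PB pools. Rbck1 (chr2:152316334-152332643) had 80.1, 81.2 and 76.6 CPM in the control pools and 74.9, 76.0 and 71.95 CPM in the PB pools. In both genes each PB pool was below each control pool by a small margin. The log2 fold changes were -0.13 (SE 0.063, 95% interval -0.28 to 0.023) for Rnf31 and -0.094 (SE 0.048, 95% interval -0.21 to 0.021) for Rbck1. Sharpin (chr15:76347040-76351115), the remaining subunit, ranged from 19.9 to 20.6 CPM in control and from 19.4 to 21.9 CPM in PB, with overlapping groups and a log2 fold change of 0.0025 (SE 0.068, 95% interval -0.16 to 0.17). NM_194346.2 held between 98.1% and 99.4% of the Rnf31 counts in every pool and NM_001083921.1 between 94.0% and 95.9% of the Rbck1 counts.

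Sharpin transcripts with and without an exon at 76350055 to 76350229 exchanged counts between pools. The percentage of Sharpin counts without it was 43.2, 63.1 and 63.2 in control pools and 0.138, 39.9 and 54.2 in PB pools. PB 1, with almost all counts on transcripts that hold the exon, stood apart from the others, and the groups overlapped. NM_025340.2, which holds the exon, had 560, 721 and 325 counts in control and 2112, 638 and 522 in PB, and XM_006520263.2, which lacks it, had 765, 1468 and 1185 in control and 0, 771 and 1148 in PB. The noncoding XR_383966.1 had 477, 0 and 293 counts in control and 59, 555 and 416 in PB.

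Otulin, the hydrolase for linear chains (chr15:27605917-27630980), had 29.1, 29.8 and 28.7 CPM in the control pools and 27.4, 27.5 and 26.8 CPM in the PB pools. All PB pools were just under all control pools, at a log2 fold change of -0.099 (SE 0.049, 95% interval -0.22 to 0.019). NM_001013792.2 held between 97.9% and 99.2% of its counts. In CPM, Rnf31, Rbck1 and Otulin were thus the 3 members without overlap and lower in PB, where 5.61% of all tested genes were, and Spata2 the 1 member without overlap and higher, where 5.10% were. As Spata2 and its set were chosen on this contrast, nothing is read from these counts, and the median log2 fold change was 0.0025 over the 7 genes and 0.0020 over all 19435.

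Levels of different genes were compared per length, as counts divided by exon length and scaled to the same total in each pool (TPM). In control, the order was Rbck1 at 48.4 ± 1.54, Otulin at 28.5 ± 1.01, Sharpin at 18.9 ± 0.945, Rnf31 at 14.8 ± 1.45, Cyld at 13.4 ± 1.72, Spata2 at 9.82 ± 0.888 and Spata2l at 1.43 ± 0.0803 TPM (SD, n = 3). Neighbours in this order did not overlap, except Rnf31 and Cyld. In PB, Spata2 was at 15.7 ± 0.744 TPM and its range met those of Rnf31, at 14.6 ± 0.642 TPM, and Cyld, at 17.4 ± 4.56, and Cyld also overlapped Sharpin, at 19.4 ± 1.46. Rbck1, Otulin and Spata2l kept their places, at 49.0 ± 1.58, 28.7 ± 1.01 and 1.51 ± 0.176 TPM. On this scale Spata2 was 1.60-fold higher in PB, with 9.60, 9.06 and 10.8 TPM in control and 16.5, 15.4 and 15.1 in PB, and the other 6 genes, Rnf31, Rbck1 and Otulin included, overlapped between groups. Rbck1 and Rnf31 are partners in 1 complex, yet the level of Rbck1 was 3.28 ± 0.239 times that of Rnf31 in control and 3.36 ± 0.0701 times in PB (SD, n = 3). The ratio of Spata2 to Rnf31 was 0.634, 0.683 and 0.670 in control and 1.08, 1.07 and 1.07 in PB, so that the PB pools stood close together and above all control pools. The ratio of Spata2 to Cyld, in contrast, was 0.648, 0.786 and 0.771 in control and 0.865, 1.26 and 0.722 in PB, and these groups overlapped.

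Other genes of the pathway were read from 7 lists with 72 genes, of which 63 were tested. In edgeR 0 of them passed the FDR threshold, 0 had an unadjusted p of at most 0.05, and DESeq2 called 0. Over all tested genes, the shares were 0.0257% past the FDR in edgeR, 4.46% at this p and 0.132% called by DESeq2. Of the 63 genes, 31 had a log2 fold change above 0 and 32 below, and their median was -0.0014. For the TNF receptor complex and its ligases, the median was -0.078 over 7 tested genes, with Birc2, a ubiquitin ligase of the complex, at 0.12, the receptor gene Tnfrsf1a at -0.057 and the adaptor gene Traf5 at -0.28. Traf5 was at 4.62 CPM in PB 2, the pool with the lowest germ cell marker sum, and between 9.08 and 9.69 CPM in the other 5 pools. Control 2, the pool with the next lowest sum, had the highest Traf5 value, 9.69 CPM. The part of germ cell content in the Traf5 values was not tested. Tnf itself had at most 14 counts in a pool and was not tested. For the adaptors of other receptors, the median was -0.021 over 8 genes, with Myd88 at 0.080, Traf3 at 0.068 and the kinase gene Irak1 at -0.23.

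Genes that conjugate, bind or remove ubiquitin had a median log2 fold change of 0.029 over 12 tested genes, among them the conjugating enzyme gene Ube2n at 0.089, the ubiquitin-binding Tnip2 at 0.17 and the deubiquitinase gene Otud7b at 0.066. Kinases activated on ubiquitin chains, listed together with their partner proteins, had a median of -0.0021 over 12 genes. Among these were the partner gene Tab2 at 0.091, its relative Tab3 at -0.062 and the kinase gene Tbk1 at 0.12. For NF-kB subunits and inhibitors, the median was 0.027 over 10 genes, with the subunit gene Relb at 0.28 and the inhibitor genes Nfkbie at 0.21 and Nfkbiz at -0.36. Nfkbiz had 2.20 ± 0.312 CPM in control against 1.71 ± 0.179 CPM in PB (SD, n = 3). Of 13 listed NF-kB target genes, 8 were tested, with a median of -0.11, Icam1, an adhesion molecule gene, at -0.16, Vcam1, another, at -0.19, and the chemokine gene Ccl2 at -0.86 from 0.206 ± 0.0661 to 0.113 ± 0.0487 CPM (SD, n = 3). Nfkbiz and Icam1 were the 2 of the 63 tested genes whose groups did not overlap in CPM, both lower in PB, where 5.61% of all tested genes were. The other 5 target genes, Ccl5, Ccl20, Cxcl1, Cxcl2 and Il6, had between 0 and 8 counts in a pool. The cell death effectors had a median of 0.025 over 6 tested genes, with the caspase gene Casp8 at 0.041 and the kinase gene Ripk3 at -0.053.

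The genes whose levels followed Spata2 most closely over the 6 pools were Npc2, a cholesterol transport gene, with a Pearson r of 0.997 between log2(CPM + 0.5) values, Sparc, a matrix protein gene, with 0.988, Dact2 with 0.986, Eps8l2 with 0.984 and Aptx, a DNA repair gene, with 0.982. The most opposite were Fam129a at -0.994, Hmgcs1, an enzyme gene of sterol synthesis, at -0.992, Gm34253 at -0.991, a gene whose symbol the deposited table holds as a date at -0.990, and BC003965 at -0.988. These r values rest on 6 pools in 2 groups that differ in Spata2, so any gene that differs between the groups scores high, and 135 of 19434 genes reached 0.9 and 164 reached -0.9. In CPM, Npc2 had 65.0 ± 1.08 in control and 149 ± 3.30 in PB, and Eps8l2 at 5.09 ± 0.111 and 6.72 ± 0.0972 CPM (SD, n = 3). Among the other members, r with Spata2 was -0.92 for Otulin, -0.80 for Rbck1, -0.69 for Rnf31, 0.43 for Cyld, 0.083 for Spata2l and 0.053 for Sharpin.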

How the data were processed

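Per the labels and the methods, the authors aligned paired reads to mm10 with HISAT2 2.1.0, built a merged transcriptome on RefSeq with StringTie 1.3.5, and deposited a matrix of raw counts per transcript, whole numbers without normalisation. From the deposited table of their DESeq2 1.30.0 comparison only gene names, positions, first-exon groups and class codes were used. Columns were assigned to pools by their names. The 1493 transcripts without a gene name, 3.05% to 4.49% of the counts of a pool, were left out of gene sums.

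Counts were tested with edgeR 4.0.16 (R 4.3.3, limma 3.58.1) by TMM, filterByExpr (minimum count 10, minimum total 15) and the quasi-likelihood F-test, with Benjamini-Hochberg FDR over all tested features. The SE is the log2 fold change divided by the square root of F. Levels at or under 3 counts, 0.0257 to 0.0319 CPM for gene sums, were the floor, which covers counting error alone. Scripts were tested on simulated data. Alternatives were DESeq2 1.42.0 and its size factors, no filter, a stricter filter, a replicate block, each pool left out, known transcripts and StringTie loci. Spata2 transcripts were divided by 3′ end at the widest gap, 792 bases, after the data were seen.

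The members and the gene lists were chosen with earlier results of these data known. Named are all members, their transcripts that hold at least 10% of the counts in a pool, are called or are at the floor in 1 group alone, per list the 3 genes with the smallest p, the 5 genes most like and most unlike Spata2, its 2 nearest genes on each side, and markers. The values of 1 gene that this rule names are not reported here. Overlapping genes, NM_030743.5, XM_017318650.1 and untested list genes were named after their values were seen.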

Additional observations from a re-analysis of the deposited data

How the results depend on the processing

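The log2 fold change of Spata2 stayed between 0.70 and 0.75 under all 13 alternatives, and those of Spata2l, Rnf31, Rbck1, Sharpin and Otulin moved by less than the spread between pools. Spata2l and Sharpin lay near 0 and changed sign when single pools were left out, between -0.12 and 0.13 and between -0.062 and 0.033. Cyld had -0.87 with known transcripts only and 0.12 to 0.43 without 1 pool. Spata2 stayed the 1 member past the FDR with both size factors, DESeq2, no filter, the stricter filter, known transcripts and StringTie loci, and 0 to 1 members passed without 1 pool. The other members had 0 calls in any fit, and the pathway lists had 0 in all 13.

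Genes past both thresholds numbered 11 with DESeq2, 8 with known transcripts and 3 to 9 without 1 pool, against 3. Genes past the FDR alone numbered 27 with DESeq2, 10 with known transcripts and 3 to 33 without 1 pool, against 5. Transcripts past both numbered 1172 with DESeq2, 39 with the stricter filter and 0 to 19 without 1 pool, against 17. The cause was not tested. The downstream first exon of Spata2, a value added after the data were seen, stayed between 1.07 and 1.23 and the upstream one between 0.0032 and 0.16.

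The replicate numbers share no stated origin. Deviations of equal numbers correlated at 0.093, 0.15 and -0.018 across genes, and not every pool correlated best with its own number. With the numbers as a block, 0 genes and 0 transcripts passed both thresholds, 0 genes passed the FDR alone, and 0 members did.

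Transcript shares and levels per length use neither normalisation factors nor a filter. The depth of each pool limits what can be seen of genes near the floor of 3 counts, and the division of reads by StringTie limits what single transcripts show.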
